A study of Danio rerio with 9 samples.

Results

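Larvae microinjected with sialylated human milk oligosaccharides (SHMO) were compared with larvae that were not microinjected (Ctrl), across all genes, in 3 pools of whole zebrafish larvae per group. The genes described are those with a mean of at least 1 TPM (transcripts of a gene per 1000000 transcripts, a share of each library that is corrected for gene length) over these 6 pools, which kept 19204 of the 32520 genes listed. The remaining 13316 genes were not tested, and 5449 of them were at 0 in all 6 pools. On either side of that limit stood glipr1a with a mean of 1 TPM and si:dkey-238o14.2 with 0.998 TPM. All larvae were wild-type fish of the AB strain, taken at 5 days post-fertilization (dpf). At 4.7 hours of age SHMO larvae had received 4.6 nL of a purified oligosaccharide fraction, at 100 mmol/L, in the yolk, and a parallel group received the bovine fraction (SBMO, 3 pools). Ctrl larvae received nothing. No library of saline-injected larvae is among the 9, so an effect of the injection and an effect of SHMOs cannot be told apart in SHMO against Ctrl. The comparison asks which genes and functions stand at another level in larvae that developed with SHMOs in the yolk.

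Sialylated milk oligosaccharides are lactose-based sugars that end in sialic acid, an acidic sugar that animal cells also build into glycoproteins and into the gangliosides of nerve cells. A zebrafish larva at this age swims freely, carries working eyes, liver, pancreas, gut and heart, and is using up the last of its yolk. Its tissues hold circadian clocks in which Bmal and Clock proteins switch on Period, Cryptochrome and Rev-erb genes, whose products then act back as repressors, and many of these genes also respond directly to light. The hour at which each pool was collected is not given in the sources used here.

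The 6 pools were separated by group, with some pools standing apart. A principal component analysis placed 52.2% of the variance on a first component, where SHMO replicates 1, 2 and 3 lay at 23.6, 63.3 and 62.4, and Ctrl replicates 1, 2 and 3 at -35.6, -49.8 and -63.8. On the second (19.7%) SHMO replicate 1 and Ctrl replicate 3 lay on one side, at -40.0 and -43.2, and the other 4 pools between 3.68 and 45.5. Pearson correlations of log2 values across genes, which are not independent replicates, were 0.945 to 0.976 among SHMO pools, 0.932 to 0.950 among Ctrl pools and 0.872 to 0.922 between the groups. Markers of the organs expected in a whole larva were present in every pool, among them those of nerve cells (ELAVL3), fast muscle (myhz2), liver (fabp10a), lens (CRYAA) and skin (krt5). Some markers, of heart, gut, slow muscle (smyhc1) and cartilage (acana) among others, set SHMO replicate 1 apart from SHMO replicates 2 and 3. The liver marker fabp10a did so less. The heart myosin light chain MYL7 stood at 24.2, 1.2 and 3.0 TPM in SHMO pools, against 27.0, 42.4 and 45.8 TPM in Ctrl pools. The gut fatty acid binding protein FABP2 stood at 687, 177 and 233 TPM in SHMO pools, against 431, 595 and 812 TPM in Ctrl pools. SHMO replicate 1 lay far above the other SHMO pools in both, just under the lowest Ctrl pool in MYL7 and within the Ctrl range in FABP2. Neither gene was called (adjusted p = 0.109 and 0.181), and both were picked after their values were seen. TPM values keep no read depth, and the fragment totals of the libraries were not used here, so no counting interval is given for single values. With 3 pools against 3 an exact permutation test cannot reach a p below 0.1, so the tests are those of a limma model over all genes. Its p-values weigh each difference against the spread within groups, estimated over all 9 pools with SBMO included.

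In SHMO larvae 1729 genes were called against Ctrl, 9.0% of the 19204 tested, with 686 higher (3.57%) and 1043 lower (5.43%). A gene was called at an adjusted p of at most 0.05 (limma with Benjamini-Hochberg adjustment over all genes tested) and a log2 fold change, log2(FC), of at least 0.58 in size. Values of log2(FC) are given ± their standard error and rest on log2(scaled TPM + 0.1), which understates changes of genes with low TPM. Called log2(FC) values had a median size of 1.05, and 70 called genes were higher and 219 lower by at least 2 log2 units. Pools of both groups did not overlap in 33.7% of all genes tested, and in 1719 of those called. Summed over genes, those called lower took up 29303 TPM less, and those called higher 16442 TPM more, of each library. Without further scaling of the deposited TPM the split was 884 higher and 814 lower, so 52.1% of calls were higher in place of 39.7%, and the median log2(FC) of all genes moved to 0.10 from 0.04. The number of calls also depended on single pools. It was 2617, 430 and 422 when SHMO replicate 1, 2 or 3 was left out, and 603, 603 and 783 when Ctrl replicate 1, 2 or 3 was. Without both SHMO replicate 1 and Ctrl replicate 3 it was 1667, of which 1093 were among the 1729. In all 6 fits that left out 1 pool, 357 genes were called, 116 of them higher and 241 lower. In every called gene named below the SHMO pools lay wholly above or wholly below the Ctrl pools. The counts of each gene list below are to be read beside the 3.57% called higher and 5.43% called lower over all genes.

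**Figure D1:**
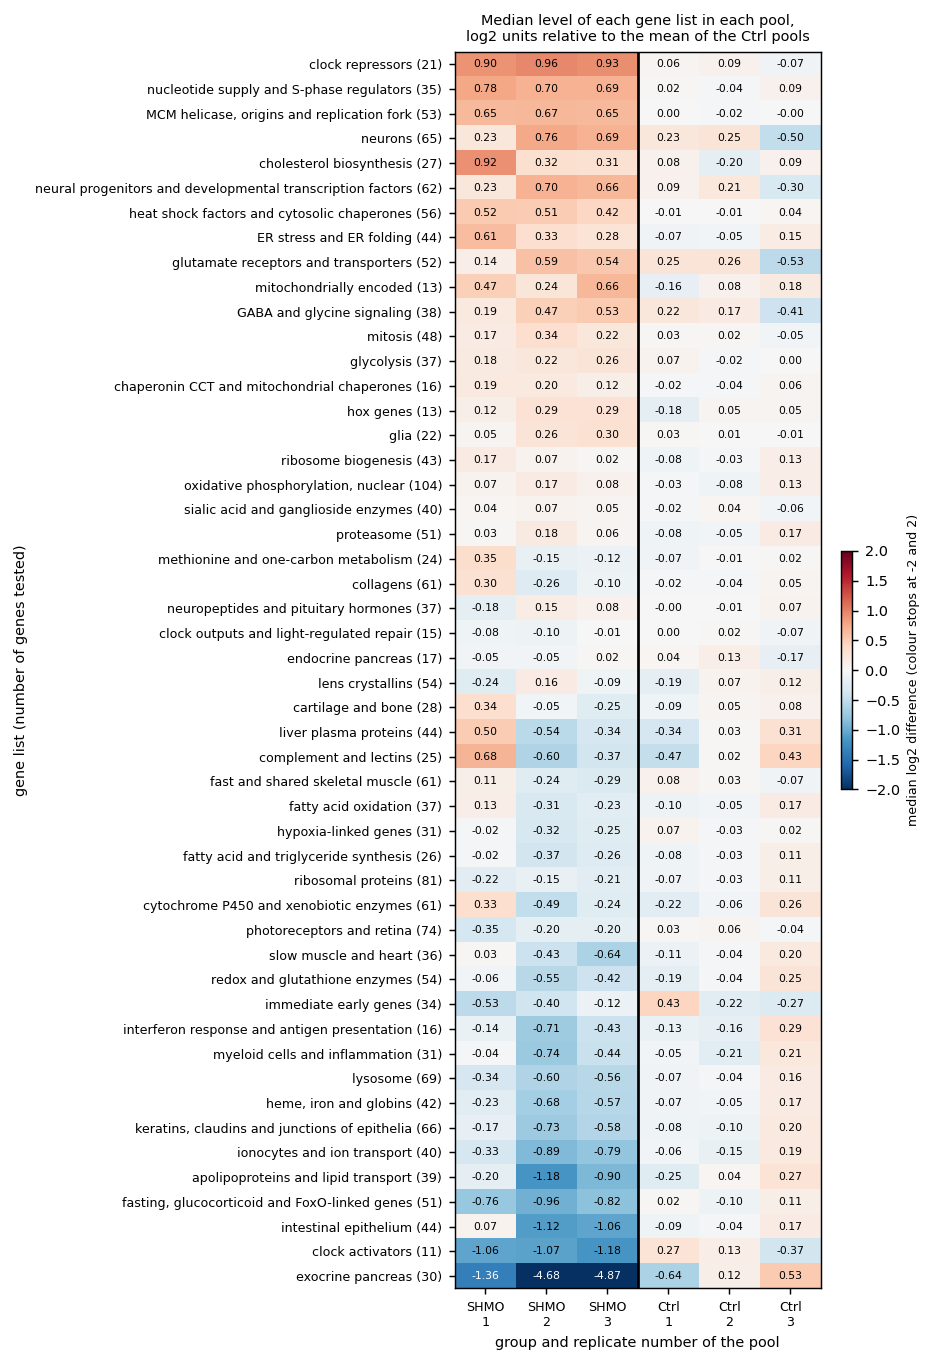
Median log2 difference from the mean of the Ctrl pools, for each gene list (rows, number of genes tested in brackets, ordered by median log2(FC)) in each of the 3 SHMO pools (left) and 3 Ctrl pools (right). Clock repressors stood at 0.90 to 0.96 in SHMO pools against -0.07 to 0.09 in Ctrl pools, while exocrine pancreas genes stood at -1.36 in SHMO replicate 1 and -4.68 and -4.87 in SHMO replicates 2 and 3.

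Among the 10 genes that rose most (higher mean of at least 5 TPM, pools lying apart), 4 belong to the clock: NR1D1, PER1 (ENSDARG00000056885), ciartb and the PAR bZIP factor dbpb, given in full with the clock genes. SERPINH1 (ENSDARG00000019949), whose product Hsp47 is the collagen chaperone of the endoplasmic reticulum (ER), had 131, 96.2 and 92.9 TPM in SHMO pools, against 11.8, 6.21 and 8.16 TPM in Ctrl pools. Every SHMO pool lay far above every Ctrl pool (log2(FC) 3.56 ± 0.464, adjusted p = 0.00298), and the gene also stood above SBMO (log2 difference 3.03, adjusted p = 0.00869). The intelectin itln3 had 37.2, 16.9 and 16.4 TPM in SHMO pools, against 0.76, 0.8 and 3.67 TPM in Ctrl pools (log2(FC) 3.87 ± 0.84, adjusted p = 0.0219), and its call was lost without SHMO replicate 2 or 3 or Ctrl replicate 1 or 2. The other 4 carry no functional name. Of them, ENSDARG00000069381 had 33.0, 32.7 and 36.2 TPM in SHMO pools, against 0.42, 0.65 and 1.67 TPM in Ctrl pools (log2(FC) 5.20 ± 0.574, adjusted p = 0.00126). The gene si:ch211-132b12.7 had 38.2, 49.3 and 54.7 TPM in SHMO pools, against 3.42, 3.37 and 3.19 TPM in Ctrl pools (log2(FC) 3.71 ± 0.356, adjusted p = 0.000744). Both also stood above SBMO, ENSDARG00000069381 by a log2 difference of 3.70, adjusted p = 0.00901, and si:ch211-132b12.7 by 4.38, adjusted p = 0.00103. In the remaining pair, si:ch211-281l24.3 (log2(FC) 5.32 ± 0.947, adjusted p = 0.0107) and si:ch211-209l18.4 (log2(FC) 4.03 ± 0.286, adjusted p = 0.000183), a difference from SBMO was not called (adjusted p = 0.37 and 0.653). The call of si:ch211-281l24.3 was lost without SHMO replicate 3 or Ctrl replicate 1 or 2.

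Of the 10 genes that fell most, 5 carry names of proteins that the pancreas secretes (CEL, CPA1, ctrb.2, SYCN and amy2a). This count goes by name only, and the tissue in which the others are expressed was not examined. A further pair, RRM2 and APOD, is given below with the S-phase and lipid transport genes. The muscle actin gene actc1c had 0.31, 0.53 and 0.32 TPM in SHMO pools, against 34.9, 23.1 and 20.7 TPM in Ctrl pools (log2(FC) -5.80 ± 1.38, adjusted p = 0.0297). The unnamed gene si:dkey-271j15.3 had 0, 0.21 and 0.21 TPM in SHMO pools, against 10.9, 9.61 and 9.36 TPM in Ctrl pools (log2(FC) -5.59 ± 1.01, adjusted p = 0.0114). For zgc:92590 the values were 0.46, 0.24 and 0.08 TPM in SHMO pools, against 11.9, 12.6 and 27.0 TPM in Ctrl pools (log2(FC) -5.68 ± 0.477, adjusted p = 0.000343). No SHMO pool reached 1 TPM in any of these, and no Ctrl pool was below 9 TPM. For actc1c the SBMO pools, which also enter the standard error, were split, at 58.2, 1.47 and 0.26 TPM. They were split for si:dkey-271j15.3 too, at 5.03, 0.12 and 0.14 TPM, and low throughout for zgc:92590, at 0.34, 0.13 and 0.31 TPM. The call of actc1c against Ctrl was kept only without SHMO replicate 1, that of si:dkey-271j15.3 was lost without Ctrl replicate 2, and that of zgc:92590 held without any single pool.

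In absolute level the largest fall was in pde6ha, a subunit of the phosphodiesterase of cone photoreceptors, with 709, 968 and 1029 TPM in SHMO pools, against 3889.6, 3704 and 3597 TPM in Ctrl pools (log2(FC) -2.13 ± 0.202, adjusted p = 0.00068). It was followed by krt4, a keratin of the outer skin layer, with 3716, 2505 and 2578 TPM in SHMO pools, against 4675, 3984 and 5146 TPM in Ctrl pools (log2(FC) -0.73 ± 0.186, adjusted p = 0.0376). Also among the 8 largest falls were prss1, krt91, GAPDH, pvalb4 and RBP4. GAPDH, the glycolytic enzyme often used as a standard, stood at 1167, 809 and 826 TPM in SHMO pools, against 1710.1, 1602 and 2133 TPM in Ctrl pools (log2(FC) -1.04 ± 0.164, adjusted p = 0.00665), with every SHMO pool below every Ctrl pool. The largest rises in level were in MT-ND1, CRYBB1, MT-ND4, actb1, CKB, MT-ND5, si:ch73-367p23.2 and FABP7. Cytoplasmic actin actb1 had 1545, 1583 and 1485 TPM in SHMO pools, against 1135, 833 and 783 TPM in Ctrl pools (log2(FC) 0.70 ± 0.122, adjusted p = 0.00968). The unnamed gene si:ch73-367p23.2 had 948, 892 and 917 TPM in SHMO pools, against 504, 431 and 372 TPM in Ctrl pools (log2(FC) 1.02 ± 0.139, adjusted p = 0.00364). The calls of pde6ha, GAPDH and si:ch73-367p23.2 held without any single pool, that of actb1 was lost without SHMO replicate 2, and those of krt4, prss1, krt91, pvalb4 and CKB were each kept only without SHMO replicate 1. RBP4 and CRYBB1 lost their calls without SHMO replicate 2 or 3 or Ctrl replicate 1 or 3, and MT-ND1, MT-ND4 and FABP7 without SHMO replicate 2 or 3 or Ctrl replicate 1 or 2.

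Clock genes stood at another level in SHMO larvae, and the 3 SHMO pools lay close together in most of them. Of 11 activator genes tested 6 fell and 0 rose, with a median log2(FC) of -1.20. Retinoid-related orphan receptor gene rorcb, whose product activates bmal1 genes in mammals, had 2.19, 2.76 and 2.66 TPM in SHMO pools, against 35.4, 32.0 and 28.1 TPM in Ctrl pools (log2(FC) -3.66 ± 0.229, adjusted p = 0.000165). The SBMO pools stood at 40.0, 44.4 and 24.7 TPM (log2 difference of SHMO from SBMO -3.83, adjusted p = 0.000197). Its paralogue rorca fell (log2(FC) -1.77 ± 0.185, adjusted p = 0.000991), as did both BMAL1 genes. The first, ENSDARG00000035732, had 5.58, 6.5 and 6.41 TPM in SHMO pools, against 22.4, 18.2 and 13.4 TPM in Ctrl pools (log2(FC) -1.57 ± 0.177, adjusted p = 0.00135). The second, ENSDARG00000006791, had 9.02, 11.9 and 11.6 TPM in SHMO pools, against 26.6, 27.0 and 23.7 TPM in Ctrl pools (log2(FC) -1.32 ± 0.204, adjusted p = 0.00611). Like nearly all called genes, these 4 had no SHMO pool that overlapped a Ctrl pool. The Bmal partner npas2 stood at 2.93 ± 0.458 TPM in SHMO pools and 8.4 ± 2.51 TPM in Ctrl pools (SD, n = 3 each; log2(FC) -1.52 ± 0.244, adjusted p = 0.00712). Of the 2 CLOCK genes, ENSDARG00000011703 was called lower (log2(FC) -1.20 ± 0.32, adjusted p = 0.0436) and kept its call only without Ctrl replicate 3, while ENSDARG00000003631 was not called (log2(FC) -0.00 ± 0.2, adjusted p = 0.991). The count of activators called lower was 5, 5 and 5 when SHMO replicate 1, 2 or 3 was left out and 5, 5 and 6 when Ctrl replicate 1, 2 or 3 was.

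Of 21 genes listed as repressors 13 rose and 2 fell, with a median log2(FC) of 1.00. The list was compiled by name, and whether each member represses the clock in zebrafish was not examined. NR1D1, which encodes the Rev-erb alpha repressor of bmal1 genes, had 56.7, 69.2 and 72.4 TPM in SHMO pools, against 4.08, 3.21 and 3.46 TPM in Ctrl pools (log2(FC) 4.1 ± 0.418, adjusted p = 0.000899). The SBMO pools stood at 2.45, 4.06 and 11.1 TPM, and no pool of either group came near the SHMO level. The Period gene PER1 (ENSDARG00000056885) had 9.51, 12.4 and 12.03 TPM in SHMO pools, against 0.62, 0.71 and 0.37 TPM in Ctrl pools (log2(FC) 4.06 ± 0.344, adjusted p = 0.000343). The other PER1 gene, ENSDARG00000012499, had 23.8, 29.5 and 27.4 TPM in SHMO pools, against 5.11, 4.66 and 3.15 TPM in Ctrl pools (log2(FC) 2.57 ± 0.307, adjusted p = 0.00189). PER3 rose as well (log2(FC) 2.21 ± 0.442, adjusted p = 0.0169), with its call lost without SHMO replicate 2 or 3 or Ctrl replicate 2 or 3. PER2, the Period gene known in zebrafish for its induction by light, stood at 28.0, 36.5 and 34.3 TPM in SHMO pools, against 39.8, 33.4 and 21.6 TPM in Ctrl pools, with overlapping groups (log2(FC) 0.03 ± 0.213, adjusted p = 0.941). Genes of the Ciart and Cipc repressors, which in mammals inhibit the Clock and Bmal pair, rose in all 3 SHMO pools alike. Of them ciarta had 41.3, 42.8 and 50.4 TPM in SHMO pools, against 8.63, 8.96 and 10.21 TPM in Ctrl pools (log2(FC) 2.19 ± 0.185, adjusted p = 0.000343). Its paralogue ciartb had 16.4, 16.9 and 17.1 TPM in SHMO pools, against 1.69, 2.24 and 1.91 TPM in Ctrl pools (log2(FC) 2.98 ± 0.366, adjusted p = 0.00216). The Cipc gene cipca had 7.48, 7.74 and 8.07 TPM in SHMO pools, against 1.14, 1.0 and 0.97 TPM in Ctrl pools (log2(FC) 2.73 ± 0.202, adjusted p = 0.000189). CRY2 (log2(FC) 1.20 ± 0.171, adjusted p = 0.00431), BHLHE41 (log2(FC) 2.13 ± 0.283, adjusted p = 0.00319) and NR1D2 (log2(FC) 1.00 ± 0.249, adjusted p = 0.0351) rose too, the last with a call kept only without SHMO replicate 1, while 2 cryptochrome genes of the same list fell. One was cry3b, with 9.66, 15.4 and 15.9 TPM in SHMO pools, against 98.0, 87.0 and 76.6 TPM in Ctrl pools (log2(FC) -2.76 ± 0.277, adjusted p = 0.00085). The other, cry4, had 9.77, 12.4 and 11.6 TPM in SHMO pools, against 22.7, 20.6 and 21.0 TPM in Ctrl pools (log2(FC) -0.99 ± 0.173, adjusted p = 0.00956). PER2, PER3, CRY2, BHLHE41, NR1D2 and npas2 are given as members of the clock chain. The repressors called higher numbered 13, 8 and 8 when SHMO replicate 1, 2 or 3 was left out and 10, 8 and 8 when Ctrl replicate 1, 2 or 3 was, and 9 without both SHMO replicate 1 and Ctrl replicate 3.

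Clock outputs were divided between the PAR bZIP activators and the Nfil3 repressors, which compete for the same sites in mammals. The PAR bZIP gene dbpa had 36.01, 39.5 and 41.7 TPM in SHMO pools, against 8.24, 7.94 and 7.02 TPM in Ctrl pools (log2(FC) 2.26 ± 0.163, adjusted p = 0.000183). Its paralogue dbpb had 14.4, 20.4 and 20.0 TPM in SHMO pools, against 2.49, 1.95 and 1.51 TPM in Ctrl pools (log2(FC) 3.08 ± 0.224, adjusted p = 0.000183). Both rose, whereas 3 genes of the Nfil3 family fell. Of these nfil3-5 had 11.8, 14.8 and 14.2 TPM in SHMO pools, against 113, 114 and 80.0 TPM in Ctrl pools (log2(FC) -2.96 ± 0.331, adjusted p = 0.0013). For nfil3-6 the values were 4.67, 4.62 and 5.22 TPM in SHMO pools, against 37.5, 34.3 and 29.8 TPM in Ctrl pools (log2(FC) -2.84 ± 0.188, adjusted p = 0.000165). The gene named NFIL3 had 9.29, 10.4 and 9.78 TPM in SHMO pools, against 29.2, 29.3 and 34.5 TPM in Ctrl pools (log2(FC) -1.71 ± 0.159, adjusted p = 0.000607). Lower too was aanat2, the enzyme that sets the nightly rhythm of melatonin in the pineal organ, with 1.63, 1.57 and 1.08 TPM in SHMO pools, against 4.24, 3.81 and 4.14 TPM in Ctrl pools (log2(FC) -1.53 ± 0.219, adjusted p = 0.00438). In the 15 outputs and light-regulated repair genes these were all the calls, 2 higher and 4 lower, and each of the 6 counts without a pool was again 2 and 4. In SHMO against SBMO, which uses the same SHMO pools and in which 4.54% of all genes were called, 5 of the 11 activators were lower, 10 of the 21 repressors were higher and 3 lower, and 7 of the 15 outputs and repair genes were higher and 4 lower.

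**Figure D2:**
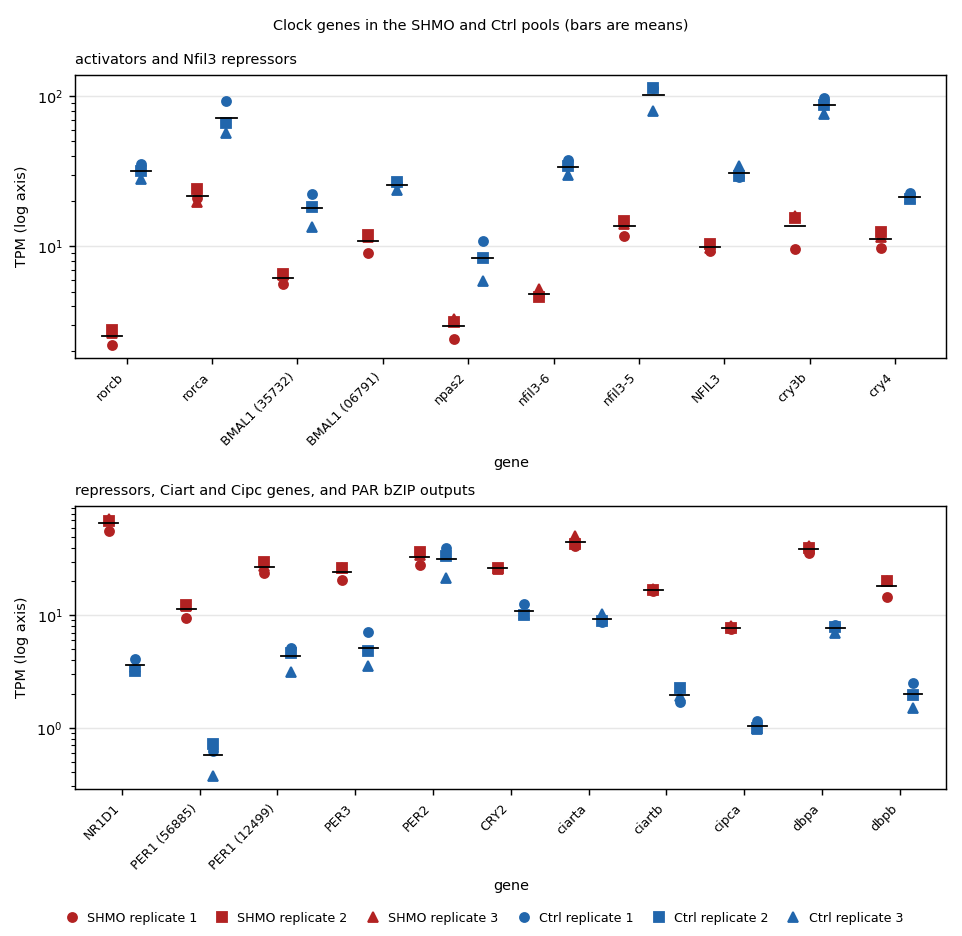
TPM (log axis) of clock genes in the 3 SHMO pools (red, left of each pair) and 3 Ctrl pools (blue, right), with means as bars; digits in brackets are the end of the gene identifier. Groups do not overlap except in PER2, and NR1D1 stands at 56.7 to 72.4 TPM in SHMO pools against 3.21 to 4.08 TPM in Ctrl pools.

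Genes known to answer to fasting, glucocorticoids and FoxO factors in vertebrates were mostly lower in SHMO larvae. Of 51 tested 21 fell and 3 rose, with a median log2(FC) of -0.81, and the 3 that rose were both PER1 genes and BCL6. The muscle ubiquitin ligase FBXO32 (atrogin), which marks muscle proteins for breakdown, had 2.25, 2.04 and 3.14 TPM in SHMO pools, against 42.4, 38.6 and 63.2 TPM in Ctrl pools (log2(FC) -4.28 ± 0.448, adjusted p = 0.001). KLHL38, another muscle gene induced by fasting in birds and mammals, had 1.63, 1.73 and 2.02 TPM in SHMO pools, against 20.7, 15.1 and 19.9 TPM in Ctrl pools (log2(FC) -3.35 ± 0.253, adjusted p = 0.000189). The autophagy receptor CALCOCO1 (ENSDARG00000016391) had 1.17, 0.92 and 1.01 TPM in SHMO pools, against 13.4, 11.9 and 15.8 TPM in Ctrl pools (log2(FC) -3.66 ± 0.239, adjusted p = 0.000165). In each of these 3 genes no SHMO pool exceeded 3.14 TPM and no Ctrl pool was below 11.9 TPM. The second muscle ligase of this kind, trim63a (MuRF1), stood at 32.5 ± 1.71 TPM in SHMO pools and 126 ± 29.2 TPM in Ctrl pools (SD, n = 3 each; log2(FC) -1.99 ± 0.296, adjusted p = 0.00507). HSD11B2, which inactivates cortisol, had 5.39, 3.43 and 3.69 TPM in SHMO pools, against 18.2, 16.3 and 24.5 TPM in Ctrl pools (log2(FC) -2.28 ± 0.227, adjusted p = 0.000819). FBXO32, KLHL38, CALCOCO1, trim63a and HSD11B2 also lay below SBMO, by log2 differences of -3.69, -3.05, -2.85, -2.08 and -1.61 (adjusted p = 0.00335, 0.00103, 0.00103, 0.00677 and 0.00651). The members called lower numbered 21, 13 and 13 when SHMO replicate 1, 2 or 3 was left out and 14, 15 and 16 when Ctrl replicate 1, 2 or 3 was, and 13 were called in every one of these fits. The call of BCL6 (log2(FC) 0.72 ± 0.175, adjusted p = 0.0324) was kept only without SHMO replicate 1.

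Chaperones of the cytosol formed a further group with higher values. Of 56 heat shock factor and chaperone genes 21 rose and 2 fell, with a median log2(FC) of 0.51. Of the inducible Hsp90 genes, HSP90AA1 had 111, 116 and 109 TPM in SHMO pools, against 22.9, 19.6 and 15.1 TPM in Ctrl pools (log2(FC) 2.5 ± 0.241, adjusted p = 0.000766). Its neighbour in the family hsp90aa1.1, which serves myosin folding in zebrafish muscle, had 189, 148 and 133 TPM in SHMO pools, against 23.5, 18.8 and 34.5 TPM in Ctrl pools (log2(FC) 2.57 ± 0.288, adjusted p = 0.0013). The lowest SHMO pool exceeded 100 TPM and the highest Ctrl pool stayed under 35 TPM in both. The Hsp70 co-chaperone dnaja1 had 27.5, 28.5 and 26.4 TPM in SHMO pools, against 8.72, 7.98 and 9.2 TPM in Ctrl pools (log2(FC) 1.59 ± 0.193, adjusted p = 0.00203). The Hsp110-type gene HSPA4 (ENSDARG00000004754) stood at 36 ± 4.56 TPM in SHMO pools and 9.75 ± 0.356 TPM in Ctrl pools (SD, n = 3 each; log2(FC) 1.8 ± 0.269, adjusted p = 0.00526). The 2 heat shock transcription factors went opposite ways. HSF2 had 34.9, 38.8 and 39.9 TPM in SHMO pools, against 11.3, 9.33 and 8.27 TPM in Ctrl pools (log2(FC) 1.91 ± 0.192, adjusted p = 0.00085). In contrast hsf1, the main factor of the heat shock response, had 4.23, 3.83 and 3.95 TPM in SHMO pools, against 8.17, 7.18 and 6.39 TPM in Ctrl pools (log2(FC) -0.90 ± 0.185, adjusted p = 0.0182). The call of hsf1 was lost without SHMO replicate 2 or 3 or Ctrl replicate 1 or 2. HSPB7, a small heat shock protein of heart and muscle, fell (log2(FC) -1.85 ± 0.285, adjusted p = 0.00606). The chaperones called higher numbered 21, 9 and 9 when SHMO replicate 1, 2 or 3 was left out and 11, 9 and 18 when Ctrl replicate 1, 2 or 3 was. Of the 16 chaperonin CCT and mitochondrial chaperone genes only HSPD1, the mitochondrial Hsp60, was called, with 92.7, 77.9 and 65.7 TPM in SHMO pools, against 46.0, 37.3 and 40.1 TPM in Ctrl pools (log2(FC) 0.86 ± 0.208, adjusted p = 0.0321), and its call was lost without any one of the 6 pools.

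In the ER 11 of 44 folding and stress genes rose and 1 fell, with a median log2(FC) of 0.40. The ER Hsp70 gene HSPA5 (BiP) had 141, 120.3 and 114 TPM in SHMO pools, against 59.5, 53.4 and 42.4 TPM in Ctrl pools (log2(FC) 1.21 ± 0.231, adjusted p = 0.0139). CDNF, a secreted factor that is retained in the ER, had 11.95, 14.4 and 11.4 TPM in SHMO pools, against 3.53, 4.64 and 5.43 TPM in Ctrl pools (log2(FC) 1.4 ± 0.256, adjusted p = 0.0117). CRELD1, an ER disulfide isomerase, had 14.2, 20.9 and 17.4 TPM in SHMO pools, against 7.77, 7.59 and 4.33 TPM in Ctrl pools (log2(FC) 1.36 ± 0.242, adjusted p = 0.0107). The gene that fell was CHAC1, a glutathione-degrading target of the Atf4 branch of the unfolded protein response, with 191, 175 and 182 TPM in SHMO pools, against 505, 420.3 and 501 TPM in Ctrl pools (log2(FC) -1.44 ± 0.185, adjusted p = 0.00278). CHAC1 and SERPINH1 (ENSDARG00000019949) kept their calls without any single pool, whereas the others each lost it without SHMO replicate 2, HSPA5 and CRELD1 also without SHMO replicate 3, and HSPA5 without Ctrl replicate 3. The count called higher was 8, 1 and 2 when SHMO replicate 1, 2 or 3 was left out and 4, 4 and 9 when Ctrl replicate 1, 2 or 3 was, and 7 without both SHMO replicate 1 and Ctrl replicate 3.

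Genes of DNA replication were higher as a group. Of 53 genes of the helicase, the origins and the fork 21 rose and 0 fell, 51 had a positive log2(FC), and the median was 0.66. All 6 subunits of the replicative helicase MCM2 to MCM7, which unwinds DNA ahead of the polymerases, were called higher, with log2(FC) between 0.66 and 1.37 and adjusted p between 0.00638 and 0.0435. Their summed level was 196, 197 and 172 TPM in SHMO replicates 1 to 3, against 101, 82.1 and 79.5 TPM in Ctrl replicates 1 to 3, and 122, 75.7 and 127 TPM in SBMO replicates 1 to 3. MCM3 had 26.9, 23.6 and 20.5 TPM in SHMO pools, against 10.4, 7.92 and 8.01 TPM in Ctrl pools (log2(FC) 1.35 ± 0.213, adjusted p = 0.00638). MCM2 had 18.6, 16.5 and 14.7 TPM in SHMO pools, against 7.8, 5.93 and 4.81 TPM in Ctrl pools (log2(FC) 1.37 ± 0.238, adjusted p = 0.00964). MCM4 had 35.1, 36.2 and 32.6 TPM in SHMO pools, against 18.3, 14.04 and 15.7 TPM in Ctrl pools (log2(FC) 1.05 ± 0.17, adjusted p = 0.00724). RNASEH2A, which removes RNA from DNA, had 24.6, 29.2 and 27.9 TPM in SHMO pools, against 15.3, 13.3 and 16.1 TPM in Ctrl pools (log2(FC) 0.80 ± 0.133, adjusted p = 0.00794). The call of MCM5 was lost without SHMO replicate 2 or Ctrl replicate 1, and that of MCM7 without any of SHMO replicates 2 and 3 and Ctrl replicates 1, 2 and 3. The genes of this list called higher numbered 16, 5 and 6 when SHMO replicate 1, 2 or 3 was left out and 7, 10 and 13 when Ctrl replicate 1, 2 or 3 was, and 10 without both SHMO replicate 1 and Ctrl replicate 3.

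Of 35 genes for nucleotide supply and the control of S phase 15 rose and 1 fell, with a median log2(FC) of 0.72. CDCA7 (ENSDARG00000077620), a chromatin gene expressed at the entry into S phase, had 33.1, 31.9 and 31.3 TPM in SHMO pools, against 11.8, 11.3 and 11.4 TPM in Ctrl pools (log2(FC) 1.4 ± 0.215, adjusted p = 0.00574). RBL1, a pocket protein related to the retinoblastoma protein, had 9.51, 10.16 and 10.4 TPM in SHMO pools, against 3.03, 2.6 and 1.97 TPM in Ctrl pools (log2(FC) 1.90 ± 0.292, adjusted p = 0.00586). Not every member promotes the cell cycle. The gene cdkn1a (p21), an inhibitor of the cyclin-dependent kinases, had 20.4, 17.8 and 14.1 TPM in SHMO pools, against 4.18, 2.04 and 3.56 TPM in Ctrl pools (log2(FC) 2.36 ± 0.356, adjusted p = 0.00537). The calls of CDCA7, RBL1, cdkn1a and MSH6 (log2(FC) 1.12 ± 0.197, adjusted p = 0.0103) held without any single pool. The 15 calls became 10, 4 and 4 when SHMO replicate 1, 2 or 3 was left out and 5, 4 and 6 when Ctrl replicate 1, 2 or 3 was, and 5 without both SHMO replicate 1 and Ctrl replicate 3. Of 48 mitosis genes 4 rose and 1 fell, with a median log2(FC) of 0.24, and the difference from the replication list was not tested. The spindle checkpoint kinase gene bub1ba had 3.94, 3.42 and 2.99 TPM in SHMO pools, against 2.14, 1.44 and 1.52 TPM in Ctrl pools (log2(FC) 0.93 ± 0.201, adjusted p = 0.0219). The condensin gene NCAPG2 had 3.1, 2.97 and 2.47 TPM in SHMO pools, against 5.2, 7.69 and 8.17 TPM in Ctrl pools (log2(FC) -1.32 ± 0.265, adjusted p = 0.0173). No mitosis call held without SHMO replicate 2 or SHMO replicate 3, where the counts were 0, and 1 gene was called higher without both SHMO replicate 1 and Ctrl replicate 3.

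The single S-phase gene that fell was a copy of RRM2, the small subunit of ribonucleotide reductase. This copy, ENSDARG00000020711, had 3.55, 0.21 and 0.52 TPM in SHMO pools, against 42.9, 48.1 and 61.2 TPM in Ctrl pools (log2(FC) -5.88 ± 1.56, adjusted p = 0.0431). The other, ENSDARG00000078069, had 80.5, 95.5 and 89.7 TPM in SHMO pools, against 22.6, 15.2 and 20.0 TPM in Ctrl pools (log2(FC) 2.14 ± 0.55, adjusted p = 0.0391). Summed, both copies gave 84.1, 95.8 and 90.2 TPM in SHMO replicates 1 to 3, against 65.5, 63.3 and 81.3 TPM in Ctrl replicates 1 to 3. In SBMO replicate 1 the first copy stood at 89.3 TPM and in SBMO replicates 2 and 3 at 1.38 and 0.45 TPM, a spread that also enters its standard error. Reads of near-identical copies can be divided between them by the counting, so the 2 values are uncertain. The same holds for other families of close copies named here, such as the inducible Hsp90 genes, the ferritin heavy chains and the digestive proteases. The call of the first copy was kept only without SHMO replicate 1, and that of the second in none of the 6 fits without a pool.

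Genes of cholesterol synthesis were higher at several steps of the pathway. Of 27 tested 9 rose and 0 fell, with a median log2(FC) of 0.54. HMGCS1, at the entry to the mevalonate pathway, had 82.4, 43.0 and 45.2 TPM in SHMO pools, against 24.0, 16.7 and 13.2 TPM in Ctrl pools (log2(FC) 1.57 ± 0.325, adjusted p = 0.0187). MVD, the last step to isoprenoid units, had 17.1, 11.95 and 11.0 TPM in SHMO pools, against 4.34, 3.55 and 4.92 TPM in Ctrl pools (log2(FC) 1.54 ± 0.223, adjusted p = 0.00447). SQLE, which makes the epoxide from which the sterol ring is closed, had 16.8, 7.97 and 8.91 TPM in SHMO pools, against 2.2, 1.21 and 1.91 TPM in Ctrl pools (log2(FC) 2.49 ± 0.373, adjusted p = 0.00528). In HMGCS1 and SQLE SHMO replicate 1 was by far the highest, and SHMO replicates 2 and 3 also lay above every Ctrl pool. The ring-closing LSS, picked as a member of the chain after its values were seen, stood at 8.25 ± 2.75 TPM in SHMO pools and 2.43 ± 0.472 TPM in Ctrl pools (SD, n = 3 each; log2(FC) 1.63 ± 0.38, adjusted p = 0.0283). In SHMO against SBMO, which uses the same SHMO pools, 10 of the 27 were called higher, while 4.54% of all genes were called in either direction. The calls against Ctrl became 4, 3 and 2 when SHMO replicate 1, 2 or 3 was left out and 3, 2 and 3 when Ctrl replicate 1, 2 or 3 was, and 3 without both SHMO replicate 1 and Ctrl replicate 3. MVD and SQLE held their calls without any single pool, whereas HMGCS1 lost its call without SHMO replicate 3 or Ctrl replicate 2 or 3, and LSS lost its call without any one of the 6.

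**Figure D3:**
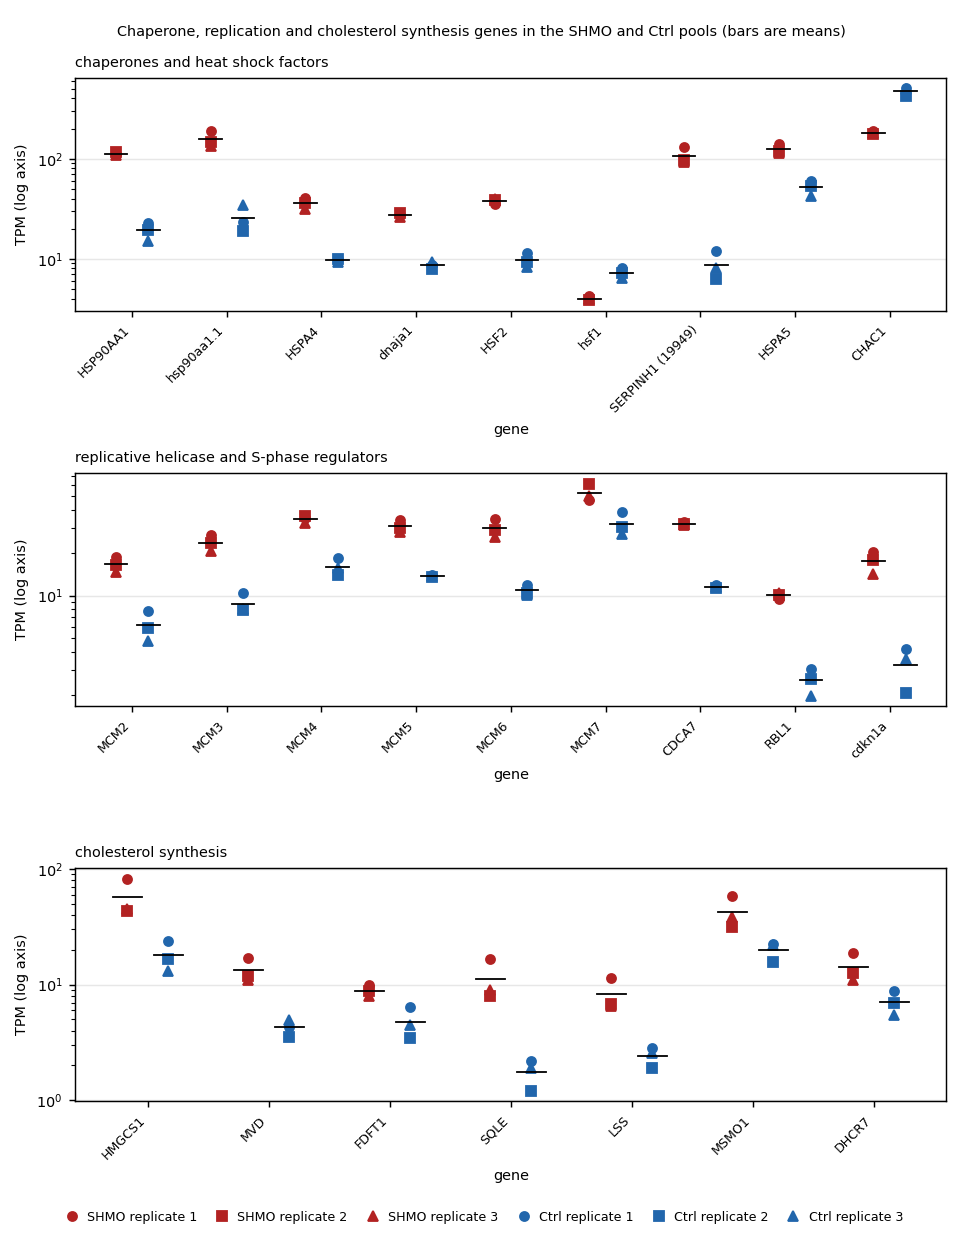
TPM (log axis) of chaperone and heat shock factor genes (top), helicase subunits and S-phase regulators (middle) and cholesterol synthesis genes (bottom) in the 3 SHMO pools (red, left of each pair) and 3 Ctrl pools (blue, right), with means as bars. MCM2 stands at 14.7 to 18.6 TPM in SHMO pools against 4.81 to 7.80 TPM in Ctrl pools, and hsf1 and CHAC1 are the genes shown that are lower in SHMO pools.

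Calls in other lipid pathways were mostly lower. Of 26 genes of fatty acid and triglyceride synthesis 2 rose and 7 fell (median log2(FC) -0.20), and of 37 genes of fatty acid oxidation 0 rose and 5 fell (median -0.16). LPIN1, a phosphatidate phosphatase and coactivator of fasting genes, had 48.0, 34.4 and 42.2 TPM in SHMO pools, against 85.3, 69.6 and 89.7 TPM in Ctrl pools (log2(FC) -1.04 ± 0.177, adjusted p = 0.00863). MLYCD, which degrades malonyl-CoA, had 3.45, 2.63 and 2.62 TPM in SHMO pools, against 8.04, 6.84 and 6.45 TPM in Ctrl pools (log2(FC) -1.34 ± 0.192, adjusted p = 0.00446). Of the mitochondrial uncoupling proteins, ucp3 had 19.7, 17.0 and 21.7 TPM in SHMO pools, against 53.7, 38.6 and 49.9 TPM in Ctrl pools (log2(FC) -1.34 ± 0.243, adjusted p = 0.0114). UCP1, the uncoupling protein of brown fat in mammals, had 78.1, 27.0 and 42.2 TPM in SHMO pools, against 136, 171 and 154 TPM in Ctrl pools (log2(FC) -1.84 ± 0.397, adjusted p = 0.0214). In UCP1 SHMO replicate 1 was the highest SHMO pool, and the call was kept only without it. The call of ucp3 was lost without SHMO replicate 2 or Ctrl replicate 1, and those of LPIN1 and MLYCD held without any single pool. Of the 2 higher genes FITM1, which serves fat storage in lipid droplets, had 18.3, 14.7 and 13.7 TPM in SHMO pools, against 5.62, 4.48 and 6.47 TPM in Ctrl pools (log2(FC) 1.42 ± 0.308, adjusted p = 0.0219). ACACA, the carboxylase that commits carbon to fatty acid synthesis, had 14.5, 16.7 and 15.5 TPM in SHMO pools, against 10.7, 8.68 and 6.14 TPM in Ctrl pools (log2(FC) 0.83 ± 0.196, adjusted p = 0.0293). Each kept its call only without SHMO replicate 1. The genes of fatty acid synthesis called lower numbered 7, 1 and 1 when SHMO replicate 1, 2 or 3 was left out and 2, 1 and 2 when Ctrl replicate 1, 2 or 3 was, and those of oxidation 10, 1 and 2 when SHMO replicate 1, 2 or 3 was left out and 1, 2 and 2 when Ctrl replicate 1, 2 or 3 was.

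Genes of the exocrine pancreas were far lower in SHMO larvae, with a wide spread among the SHMO pools. Of 30 genes of its digestive enzymes and acinar cells 20 fell and 0 rose, and the median log2(FC) was -3.76. Summed over the list, the level was 3111, 232 and 210.3 TPM in SHMO replicates 1 to 3, against 5030.0, 6985 and 9516 TPM in Ctrl replicates 1 to 3. Carboxyl ester lipase CEL (ENSDARG00000029822) had 0.42, 0 and 0.03 TPM in SHMO pools, against 9.35, 10.6 and 20.9 TPM in Ctrl pools (log2(FC) -6.11 ± 0.644, adjusted p = 0.00101), in which only SHMO replicate 1 exceeded 0.1 TPM among SHMO pools. Its call held without any single pool, as did that of the elastase cela1.3 (log2(FC) -4.18 ± 0.641, adjusted p = 0.00577). The chymotrypsinogen gene ctrb.2 had 84.1, 4.87 and 5.03 TPM in SHMO pools, against 244, 339 and 412 TPM in Ctrl pools (log2(FC) -4.72 ± 1.03, adjusted p = 0.0219). The amylase amy2a had 39.4, 3.69 and 4.36 TPM in SHMO pools, against 159, 201 and 269 TPM in Ctrl pools (log2(FC) -4.62 ± 0.838, adjusted p = 0.0114). The trypsin gene prss1 had 530.4, 46.2 and 41.2 TPM in SHMO pools, against 836, 1077 and 1556 TPM in Ctrl pools (log2(FC) -3.54 ± 0.933, adjusted p = 0.0425). In these 3 genes SHMO replicate 1 lay between SHMO replicates 2 and 3 on one side and the Ctrl pools on the other. Carboxypeptidase CPA1 (ENSDARG00000030915; log2(FC) -5.15 ± 1.02, adjusted p = 0.0166) and syncollin SYCN (log2(FC) -4.68 ± 1.09, adjusted p = 0.0277) were lower by a similar size, and like ctrb.2 and prss1 they kept their calls only without SHMO replicate 1, while amy2a lost its call without SHMO replicate 2 or 3 or Ctrl replicate 2 or 3. The number of members called lower was 28, 2 and 3 when SHMO replicate 1, 2 or 3 was left out and 7, 3 and 3 when Ctrl replicate 1, 2 or 3 was, and 25 without both SHMO replicate 1 and Ctrl replicate 3. In whole larvae fewer cells of a type and less RNA per cell cannot be told apart. The list was low in the SBMO pools too, at 135, 160 and 725 TPM, and 0 of the 30 genes was called in SHMO against SBMO, a comparison in which an uncalled difference does not show that the larvae were alike.

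Lists of the gut and of slow muscle and heart were divided among the SHMO pools too, with median log2 differences from the Ctrl mean of 0.07, -1.12 and -1.06 and of 0.03, -0.43 and -0.64 in SHMO replicates 1 to 3. The endocrine pancreas list was not so divided, at -0.05, -0.05 and 0.02. Of its 17 genes INSM1 (log2(FC) 1.01 ± 0.241, adjusted p = 0.03) and NEUROD1 (log2(FC) -1.14 ± 0.221, adjusted p = 0.0151), both also factors of nerve cells, were the only ones called, INSM1 only with all pools or without SHMO replicate 1, and NEUROD1 not without SHMO replicate 2 or Ctrl replicate 1 or 2. The insulin gene ins of the islets had 39.2, 9.31 and 5.49 TPM in SHMO pools, against 30.3, 43.6 and 62.7 TPM in Ctrl pools (log2(FC) -1.85 ± 0.638, adjusted p = 0.0926). The apolipoprotein B gene apobb.1, expressed in yolk layer and liver, had 112, 16.0 and 28.3 TPM in SHMO pools, against 84.0, 128 and 167 TPM in Ctrl pools (log2(FC) -1.78 ± 0.611, adjusted p = 0.0908). In both SHMO replicate 1 lay within the range of the Ctrl pools, and neither was called. Of 36 genes of slow muscle and heart 7 fell and 0 rose (median log2(FC) -0.27). Heart genes were among those that fell. TNNT2 (cardiac troponin T) had 3.64, 0.99 and 0.85 TPM in SHMO pools, against 4.94, 7.37 and 11.1 TPM in Ctrl pools (log2(FC) -2.32 ± 0.483, adjusted p = 0.019). Its partner tnnc1a (cardiac troponin C) had 0.67, 0.12 and 0.18 TPM in SHMO pools, against 4.28, 3.77 and 5.85 TPM in Ctrl pools (log2(FC) -3.73 ± 0.558, adjusted p = 0.00526). The cardiac myosin light chain cmlc1 had 10.7, 1.12 and 1.06 TPM in SHMO pools, against 20.5, 23.9 and 30.7 TPM in Ctrl pools (log2(FC) -3.39 ± 0.777, adjusted p = 0.0265). FHL2, a LIM protein of the heart, had 2.31, 1.01 and 0.99 TPM in SHMO pools, against 14.7, 10.7 and 15.3 TPM in Ctrl pools (log2(FC) -3.31 ± 0.324, adjusted p = 0.000819). FHL2 and tnnc1a held their calls without any single pool, TNNT2 lost its call without SHMO replicate 2 or 3 or Ctrl replicate 2 or 3, and cmlc1 kept its call only without SHMO replicate 1. The count called lower in this list was 12, 3 and 3 when SHMO replicate 1, 2 or 3 was left out and 4, 3 and 3 when Ctrl replicate 1, 2 or 3 was. Of 44 genes of the intestinal epithelium 7 fell and 1 rose (median -0.87). The chitinase chia.1 had 11.7, 0.45 and 0.95 TPM in SHMO pools, against 22.9, 33.5 and 37.7 TPM in Ctrl pools (log2(FC) -4.08 ± 0.87, adjusted p = 0.0204), with SHMO replicate 1 again the highest SHMO pool by far and a call kept only without it. The epithelial adhesion protein epcam had 66.4, 65.6 and 99.9 TPM in SHMO pools, against 276, 196 and 316 TPM in Ctrl pools (log2(FC) -1.83 ± 0.258, adjusted p = 0.00404), with SHMO replicates 1 and 2 close together. The gene that rose was AGR2, a disulfide isomerase of mucus cells, with 63.5, 39.6 and 42.6 TPM in SHMO pools, against 16.3, 14.01 and 22.9 TPM in Ctrl pools (log2(FC) 1.38 ± 0.308, adjusted p = 0.0243). The call of AGR2 was lost without SHMO replicate 2 or 3 or Ctrl replicate 1 or 2, and that of epcam held without any single pool. Intestinal genes called lower numbered 25, 4 and 4 when SHMO replicate 1, 2 or 3 was left out and 5, 4 and 4 when Ctrl replicate 1, 2 or 3 was, and 13 without both SHMO replicate 1 and Ctrl replicate 3. The genes ins, apobb.1, cmlc1 and chia.1 were picked after their values were seen.

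**Figure D4:**
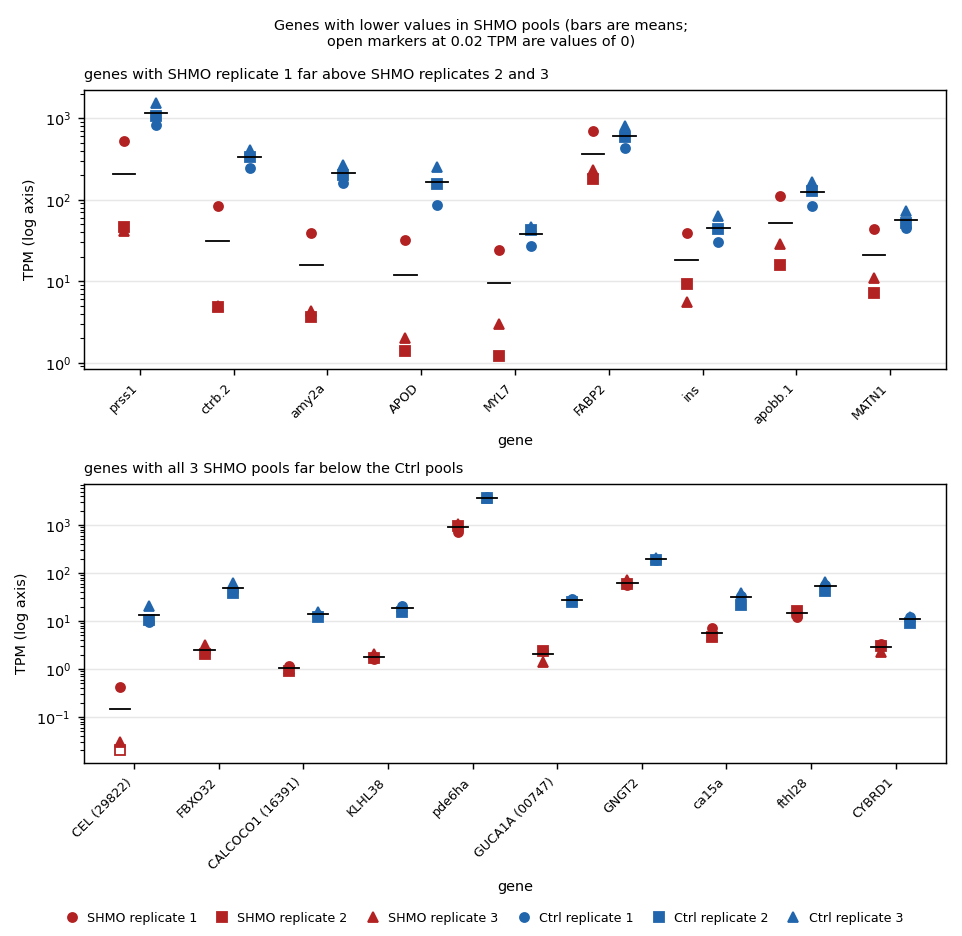
TPM (log axis) in the 3 SHMO pools (red, left of each pair) and 3 Ctrl pools (blue, right), with means as bars, for genes in which SHMO replicate 1 lay far above SHMO replicates 2 and 3 (top) and for genes in which all SHMO pools lay far below the Ctrl pools (bottom); the panels were chosen after the values were seen. In prss1 the SHMO pools stand at 530, 46.2 and 41.2 TPM against 836 to 1556 TPM in Ctrl pools, and an open marker stands for a value of 0.

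Calls among genes for lipid transport were mostly lower. Of 39 tested 14 fell and 1 rose (median log2(FC) -0.77), and the list median lay at -0.20, -1.18 and -0.90 in SHMO replicates 1 to 3, against -0.25, 0.04 and 0.27 in Ctrl replicates 1 to 3. The summed level did not follow the list median, with 15231, 8668 and 11055 TPM in SHMO replicates 1 to 3, against 10446, 10785 and 13220.0 TPM in Ctrl replicates 1 to 3, and the groups overlapped. Of its abundant members apoa1b, which encodes the main protein of high-density lipoprotein and was picked after its values were seen, had 4120.1, 2973 and 3404 TPM in SHMO pools, against 2791, 2594 and 2664 TPM in Ctrl pools and was not called (log2(FC) 0.30 ± 0.177, adjusted p = 0.274). The enzyme LCAT, which esterifies cholesterol in lipoproteins, had 2.91, 0.82 and 1.31 TPM in SHMO pools, against 8.62, 7.35 and 12.3 TPM in Ctrl pools (log2(FC) -2.63 ± 0.378, adjusted p = 0.00446). The lipoprotein receptor SCARB1 had 10.4, 5.94 and 5.76 TPM in SHMO pools, against 18.5, 14.2 and 15.4 TPM in Ctrl pools (log2(FC) -1.22 ± 0.212, adjusted p = 0.00955). The apolipoprotein E gene apoeb had 475, 317 and 373 TPM in SHMO pools, against 688, 614 and 729 TPM in Ctrl pools (log2(FC) -0.89 ± 0.158, adjusted p = 0.0107). An APOD gene (ENSDARG00000060350) had 32.3, 1.4 and 1.99 TPM in SHMO pools, against 85.7, 157 and 252 TPM in Ctrl pools (log2(FC) -5.08 ± 1.07, adjusted p = 0.0196), with its call kept only without SHMO replicate 1. The call of LCAT held without any single pool, that of SCARB1 was lost without SHMO replicate 2 or 3, and that of apoeb without SHMO replicate 3. The hepatic lipase gene LIPC was the one that rose (log2(FC) 2.41 ± 0.606, adjusted p = 0.0369), a call lost without any one of the 6 pools. Members called lower numbered 21, 2 and 1 when SHMO replicate 1, 2 or 3 was left out and 5, 5 and 7 when Ctrl replicate 1, 2 or 3 was. Of 44 plasma protein genes of the liver 2 were called higher and 2 lower (median -0.10). These shares, 4.55% each, were near the 3.57% and 5.43% of all genes tested. Hemopexin hpxa, which binds free heme, had 18.4, 8.22 and 13.3 TPM in SHMO pools, against 1.14, 1.31 and 2.17 TPM in Ctrl pools (log2(FC) 2.94 ± 0.599, adjusted p = 0.0178). The serpin gene serpina10a, an inhibitor of clotting in mammals, had 69.8, 74.7 and 75.2 TPM in SHMO pools, against 27.5, 38.4 and 35.6 TPM in Ctrl pools (log2(FC) 1.06 ± 0.182, adjusted p = 0.00924). TAT, a tyrosine aminotransferase that glucocorticoids induce, had 12.5, 8.29 and 10.7 TPM in SHMO pools, against 27.2, 32.7 and 40.4 TPM in Ctrl pools (log2(FC) -1.73 ± 0.278, adjusted p = 0.00717). The call of hpxa was lost without SHMO replicate 3 or Ctrl replicate 1 or 2. Liver genes called lower numbered 9, 1 and 1 when SHMO replicate 1, 2 or 3 was left out and 1, 2 and 1 when Ctrl replicate 1, 2 or 3 was. Of 25 complement and lectin genes only ITLN1 (ENSDARG00000095082) was called (log2(FC) -1.70 ± 0.39, adjusted p = 0.0268), and it lost its call without SHMO replicate 2 or 3 or Ctrl replicate 2 or 3. The intelectin gene itln3, given above among the largest rises, is not in this list.

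Of 69 lysosome genes 23 fell and 1 rose, with a median log2(FC) of -0.50. The cathepsin L gene ctsl.1, a cysteine protease, had 95.8, 97.1 and 113 TPM in SHMO pools, against 277, 238 and 266 TPM in Ctrl pools (log2(FC) -1.42 ± 0.183, adjusted p = 0.00284). Legumain LGMN, another cysteine protease, had 94.6, 59.6 and 63.8 TPM in SHMO pools, against 152, 173 and 210.2 TPM in Ctrl pools (log2(FC) -1.38 ± 0.202, adjusted p = 0.00464). The alpha-galactosidase gene GLA had 0.92, 0.83 and 0.57 TPM in SHMO pools, against 3.95, 3.36 and 4.24 TPM in Ctrl pools (log2(FC) -2.25 ± 0.295, adjusted p = 0.003), with every SHMO pool below 1 TPM and every Ctrl pool above 3 TPM. These 3 calls held without any single pool. MITF (ENSDARG00000003732), a transcription factor of pigment cells and of lysosome genes, was the one that rose (log2(FC) 1.35 ± 0.253, adjusted p = 0.0132), a call lost without SHMO replicate 2. The members called lower numbered 27, 3 and 3 when SHMO replicate 1, 2 or 3 was left out and 5, 5 and 8 when Ctrl replicate 1, 2 or 3 was, and 19 without both SHMO replicate 1 and Ctrl replicate 3. Of 54 redox and glutathione genes 6 fell and 1 rose (median -0.32). Glutathione peroxidase gpx1a had 53.3, 41.8 and 42.7 TPM in SHMO pools, against 84.3, 81.3 and 104 TPM in Ctrl pools (log2(FC) -1.03 ± 0.171, adjusted p = 0.00784) and held its call without any single pool. GCLM, a subunit of the first enzyme of glutathione synthesis, had 5.96, 5.65 and 4.46 TPM in SHMO pools, against 9.61, 9.0 and 12.2 TPM in Ctrl pools (log2(FC) -0.99 ± 0.179, adjusted p = 0.0114), which was lost without SHMO replicate 3. Redox genes called lower numbered 18, 2 and 1 when SHMO replicate 1, 2 or 3 was left out and 6, 2 and 3 when Ctrl replicate 1, 2 or 3 was, and 10 without both SHMO replicate 1 and Ctrl replicate 3.

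Of 42 heme, iron and globin genes 15 fell and 3 rose (median log2(FC) -0.50). Ferritin heavy chains store iron, and 5 of their genes were lower. Of these fthl28 had 11.9, 16.5 and 14.8 TPM in SHMO pools, against 55.5, 41.9 and 66.0 TPM in Ctrl pools (log2(FC) -1.97 ± 0.206, adjusted p = 0.001). For fthl30 the values were 4.41, 4.91 and 5.33 TPM in SHMO pools, against 17.7, 9.3 and 13.97 TPM in Ctrl pools (log2(FC) -1.49 ± 0.215, adjusted p = 0.00447). The ferric reductase CYBRD1 had 3.27, 2.99 and 2.24 TPM in SHMO pools, against 12.2, 9.04 and 12.2 TPM in Ctrl pools (log2(FC) -2.01 ± 0.18, adjusted p = 0.000524). The heme-binding HEBP2 had 12.5, 8.43 and 9.9 TPM in SHMO pools, against 29.4, 29.3 and 42.6 TPM in Ctrl pools (log2(FC) -1.77 ± 0.216, adjusted p = 0.00211). The embryonic globin hbae1.1 stood at 33.4 ± 4.25 TPM in SHMO pools and 98.2 ± 12.2 TPM in Ctrl pools (SD, n = 3 each; log2(FC) -1.62 ± 0.332, adjusted p = 0.018), with its call kept only without SHMO replicate 1. On the other side the transferrin receptor tfr1b, which takes iron up, had 60.6, 36.01 and 34.1 TPM in SHMO pools, against 14.2, 14.9 and 19.3 TPM in Ctrl pools (log2(FC) 1.32 ± 0.292, adjusted p = 0.0234). ALAS1, the first enzyme of heme synthesis outside red cells, had 208, 151 and 148 TPM in SHMO pools, against 79.2, 84.6 and 53.4 TPM in Ctrl pools (log2(FC) 1.17 ± 0.272, adjusted p = 0.028). CPOX, a later step, rose too (log2(FC) 0.79 ± 0.198, adjusted p = 0.0358). Of these rises tfr1b lost its call without SHMO replicate 2 or 3 or Ctrl replicate 1 or 2, and ALAS1 and CPOX lost theirs without any one of the 6 pools. Members called lower numbered 16, 8 and 9 when SHMO replicate 1, 2 or 3 was left out and 9, 9 and 9 when Ctrl replicate 1, 2 or 3 was, and 8 were called in all of these fits.

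Of 40 genes of ionocytes, the skin cells through which larvae take up and release ions, 16 fell and 0 rose (median log2(FC) -0.59). The carbonic anhydrase ca15a of the acid-secreting ionocytes had 7.1, 4.75 and 4.77 TPM in SHMO pools, against 32.8, 22.1 and 38.3 TPM in Ctrl pools (log2(FC) -2.52 ± 0.275, adjusted p = 0.00123). The forkhead factor foxi3b, which specifies ionocytes in zebrafish, had 6.18, 5.21 and 3.83 TPM in SHMO pools, against 15.5, 11.0 and 15.3 TPM in Ctrl pools (log2(FC) -1.52 ± 0.212, adjusted p = 0.00399). The sodium pump subunit ATP1B1 (ENSDARG00000076833) had 47.3, 47.4 and 46.0 TPM in SHMO pools, against 87.5, 70.26 and 92.1 TPM in Ctrl pools (log2(FC) -0.88 ± 0.143, adjusted p = 0.00717). As in nearly all called genes, no SHMO pool overlapped a Ctrl pool in any of these, and their calls held without any single pool. SBMO pools lay at similar values, with 4.26, 2.41 and 5.2 TPM for ca15a, and the difference of SHMO from SBMO was not called (log2 difference 0.43, adjusted p = 0.386). The count called lower was 18, 7 and 8 when SHMO replicate 1, 2 or 3 was left out and 11, 8 and 7 when Ctrl replicate 1, 2 or 3 was. Of 66 keratin, claudin and junction genes 10 fell and 0 rose (median -0.50), and 15 had a positive log2(FC). The abundant skin keratin krt5 did not follow the list median. It had 2800, 2121 and 2923 TPM in SHMO pools, against 1829, 1448 and 1957 TPM in Ctrl pools. Annexin anxa1c had 10.45, 5.72 and 4.88 TPM in SHMO pools, against 47.7, 39.2 and 42.0 TPM in Ctrl pools (log2(FC) -2.74 ± 0.425, adjusted p = 0.00611). The plakophilin PKP1 of desmosomes had 3.22, 1.7 and 1.8 TPM in SHMO pools, against 5.98, 4.83 and 6.69 TPM in Ctrl pools (log2(FC) -1.45 ± 0.239, adjusted p = 0.00777). Both calls held without any single pool. Members of that list called lower numbered 23, 3 and 3 when SHMO replicate 1, 2 or 3 was left out and 5, 3 and 3 when Ctrl replicate 1, 2 or 3 was.

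Of 74 photoreceptor and retina genes 18 fell and 7 rose (median log2(FC) -0.23). GUCA1A (ENSDARG00000100747), a calcium sensor that restarts cyclic GMP synthesis after light, had 2.35, 2.39 and 1.39 TPM in SHMO pools, against 29.1, 24.4 and 27.3 TPM in Ctrl pools (log2(FC) -3.75 ± 0.373, adjusted p = 0.000819). GNGT2, the gamma subunit of the cone G protein, had 55.0, 58.5 and 72.4 TPM in SHMO pools, against 191, 189 and 210.2 TPM in Ctrl pools (log2(FC) -1.74 ± 0.162, adjusted p = 0.000607). Both also lay below SBMO, GUCA1A by a log2 difference of -1.96, adjusted p = 0.0214, and GNGT2 by -1.56, adjusted p = 0.00197. Green cone opsin opn1mw2 stood at 7.83 ± 3.13 TPM in SHMO pools and 78.2 ± 15.7 TPM in Ctrl pools (SD, n = 3 each; log2(FC) -3.42 ± 0.588, adjusted p = 0.00924), and the SBMO pools were split at 93.4, 18.6 and 13.1 TPM. This gene was picked after its values were seen, and its call against Ctrl held without any single pool. Retinol dehydrogenase genes named RDH8, which recycle the chromophore, were called in both directions. One, ENSDARG00000028048, had 15.2, 13.2 and 13.9 TPM in SHMO pools, against 37.2, 33.3 and 33.9 TPM in Ctrl pools (log2(FC) -1.37 ± 0.127, adjusted p = 0.000607). Another, ENSDARG00000105060, had 6.84, 8.5 and 6.55 TPM in SHMO pools, against 3.24, 2.11 and 2.49 TPM in Ctrl pools (log2(FC) 1.39 ± 0.177, adjusted p = 0.00272). Higher values were also seen in FSCN2, an actin bundler (log2(FC) 1.20 ± 0.216, adjusted p = 0.0113), GRK7, a cone opsin kinase (log2(FC) 0.90 ± 0.172, adjusted p = 0.0141), and NXNL1, which encodes a survival factor of cones in mammals (log2(FC) 1.1 ± 0.213, adjusted p = 0.0149), and these 3 calls were lost without SHMO replicate 2 or 3, those of GRK7 and NXNL1 also without Ctrl replicate 1 or 2. The retinal genes called lower numbered 15, 11 and 10 when SHMO replicate 1, 2 or 3 was left out and 11, 11 and 13 when Ctrl replicate 1, 2 or 3 was, and those called higher 7, 1 and 1 when SHMO replicate 1, 2 or 3 was left out and 2, 3 and 7 when Ctrl replicate 1, 2 or 3 was. Without both SHMO replicate 1 and Ctrl replicate 3, 10 were called lower. In the lens 4 of 54 crystallin and fibre genes rose and 0 fell (median -0.06, 0.01 without further scaling and 0.09 under quantile normalization), with 0 called higher without both SHMO replicate 1 and Ctrl replicate 3. A positive log2(FC) was seen in 24 of the 54. Summed, the list held 40883, 52741 and 43423 TPM in SHMO replicates 1 to 3, against 42488, 44657 and 46546 TPM in Ctrl replicates 1 to 3. The lens marker CRYAA was lower, with 53.9, 62.3 and 60.0 TPM in SHMO pools, against 88.8, 105 and 77.0 TPM in Ctrl pools. The beta crystallin CRYBB1 had 1902, 2959.6 and 2323 TPM in SHMO pools, against 1049, 1762 and 1031 TPM in Ctrl pools (log2(FC) 0.86 ± 0.237, adjusted p = 0.0488). The lens aquaporin MIP had 92.6, 112 and 95.7 TPM in SHMO pools, against 50.5, 68.3 and 50.3 TPM in Ctrl pools (log2(FC) 0.77 ± 0.184, adjusted p = 0.0302), with both calls lost without SHMO replicate 2 or 3 or Ctrl replicate 1 or 3.

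Of 65 genes of nerve cells 8 rose and 0 fell, 62 had a positive log2(FC), and the median was 0.56. The vesicle SNARE gene vamp1a had 72.5, 84.9 and 109 TPM in SHMO pools, against 37.6, 45.8 and 29.8 TPM in Ctrl pools (log2(FC) 1.17 ± 0.211, adjusted p = 0.0113). The tubulin gene tubb5 had 156, 207 and 205 TPM in SHMO pools, against 100.4, 101 and 79.6 TPM in Ctrl pools (log2(FC) 0.94 ± 0.201, adjusted p = 0.0204). STMN2, a microtubule protein of growing axons, had 57.1, 83.2 and 87.0 TPM in SHMO pools, against 41.0, 40.0 and 28.5 TPM in Ctrl pools (log2(FC) 0.98 ± 0.213, adjusted p = 0.0221). SHMO replicate 1 was the lowest SHMO pool in each, and Ctrl replicate 3 the lowest Ctrl pool. The list median was 0.23, 0.76 and 0.69 in SHMO replicates 1 to 3, against 0.23, 0.25 and -0.50 in Ctrl replicates 1 to 3, so SHMO replicate 1 did not lie above Ctrl replicates 1 and 2. Summed levels of the exocrine pancreas ran the other way in the same pools, highest in SHMO replicate 1 among SHMO pools and in Ctrl replicate 3 among Ctrl pools, and the part of one in the other was not tested. The nerve cell genes called higher numbered 23, 1 and 0 when SHMO replicate 1, 2 or 3 was left out and 2, 4 and 1 when Ctrl replicate 1, 2 or 3 was, and 16 without both SHMO replicate 1 and Ctrl replicate 3. The call of vamp1a was lost without SHMO replicate 3, and those of tubb5 and STMN2 without SHMO replicate 2 or 3 or Ctrl replicate 1 or 3.

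Of 52 genes of glutamate signaling 3 rose and 0 fell (median log2(FC) 0.40), and of 38 of GABA and glycine signaling 5 rose and 0 fell (median 0.35). Glutamate genes called higher numbered 3, 0 and 0 when SHMO replicate 1, 2 or 3 was left out and 0, 1 and 1 when Ctrl replicate 1, 2 or 3 was, and those of GABA and glycine 9, 1 and 1 when SHMO replicate 1, 2 or 3 was left out and 1, 2 and 2 when Ctrl replicate 1, 2 or 3 was. The glutamate median, as a log2 difference from the Ctrl mean, was 0.14, 0.59 and 0.54 in SHMO replicates 1 to 3, against 0.25, 0.26 and -0.53 in Ctrl replicates 1 to 3, so SHMO replicate 1 lay below Ctrl replicates 1 and 2, and the median log2(FC) was 0.15 without Ctrl replicate 3. The vesicular glutamate transporter SLC17A6 (ENSDARG00000041150) had 30.5, 31.8 and 38.0 TPM in SHMO pools, against 20.5, 20.4 and 12.9 TPM in Ctrl pools (log2(FC) 0.85 ± 0.19, adjusted p = 0.0245). The other glutamate calls were the transporters SLC1A2 (log2(FC) 1.27 ± 0.346, adjusted p = 0.047) and SLC1A3 (log2(FC) 1.07 ± 0.295, adjusted p = 0.0481). Both are also counted among the glia genes below. The call of SLC1A2 was kept only without SHMO replicate 1, and that of SLC1A3 was lost without any one of the 6 pools. The share of glutamate genes called higher was 5.77%, against 3.57% of all genes tested. The glycine transporter SLC6A5 (ENSDARG00000067964) had 21.7, 29.5 and 29.9 TPM in SHMO pools, against 16.1, 14.6 and 8.63 TPM in Ctrl pools (log2(FC) 1.01 ± 0.235, adjusted p = 0.0283). The call of SLC17A6 was lost without SHMO replicate 2 or 3 or Ctrl replicate 1, and that of SLC6A5 was kept only without SHMO replicate 1. Of 62 neural progenitor and developmental factor genes 7 rose and 0 fell (median 0.54). The Notch target HEY1 had 13.4, 11.1 and 13.7 TPM in SHMO pools, against 6.52, 5.26 and 4.77 TPM in Ctrl pools (log2(FC) 1.13 ± 0.15, adjusted p = 0.00323) and held its call without any single pool. SOX21 (ENSDARG00000008540) had 12.9, 14.2 and 14.8 TPM in SHMO pools, against 8.45, 8.3 and 7.28 TPM in Ctrl pools (log2(FC) 0.73 ± 0.142, adjusted p = 0.0156), a call lost without SHMO replicate 2 or 3 or Ctrl replicate 1. The progenitor genes called higher numbered 26, 1 and 1 when SHMO replicate 1, 2 or 3 was left out and 1, 3 and 3 when Ctrl replicate 1, 2 or 3 was, and 18 without both SHMO replicate 1 and Ctrl replicate 3. Of 22 glia genes 3 rose and 1 fell (median 0.16). The glial fatty acid binding protein FABP7 (ENSDARG00000007697) had 857, 1202 and 1118 TPM in SHMO pools, against 581, 567 and 657 TPM in Ctrl pools (log2(FC) 0.74 ± 0.149, adjusted p = 0.0176), lost without SHMO replicate 2 or 3 or Ctrl replicate 1 or 2. The water channel AQP4 fell (log2(FC) -1.52 ± 0.37, adjusted p = 0.0321), a call kept only without SHMO replicate 1. Without 1 pool in turn the glia counts were 0 to 3 higher and 0 to 1 lower.

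Of genes of fast muscle, cartilage and bone, and collagens, 8.2%, 10.7% and 6.56% were called lower, against 5.43% of all genes tested. The shares called higher were 0, 3.57% and 6.56%, against 3.57% of all genes tested. Of 61 fast and shared muscle genes 5 fell and 0 rose (median log2(FC) -0.13), and 23 had a positive log2(FC). None of the 5 calls held without SHMO replicate 2 or SHMO replicate 3. The fast myosin binding protein MYBPC2 (ENSDARG00000030157) had 3.49, 2.47 and 2.24 TPM in SHMO pools, against 5.35, 5.08 and 6.53 TPM in Ctrl pools (log2(FC) -1.10 ± 0.209, adjusted p = 0.0136). Summed, the list held 136202, 140101 and 134904 TPM in SHMO replicates 1 to 3, against 136457, 115682 and 120535 TPM in Ctrl replicates 1 to 3. Of 28 cartilage and bone genes 1 rose and 3 fell (median -0.08), and of 61 collagen genes and their enzymes 4 rose and 4 fell (median -0.02, 0.05 without further scaling and 0.02 under quantile normalization). The collagen calls were 2 higher and 11 lower without SHMO replicate 1, and 1 to 2 higher and 0 to 1 lower without each other pool. Those of cartilage and bone were 1 higher and 6 lower without SHMO replicate 1, and 0 to 2 higher and 0 to 1 lower without each other pool. MATN1, a cartilage matrix protein, had 44.1, 7.27 and 10.9 TPM in SHMO pools, against 44.5, 52.3 and 73.5 TPM in Ctrl pools (log2(FC) -1.93 ± 0.529, adjusted p = 0.0478), with SHMO replicate 1 near the Ctrl pools and a call kept only without it. P4HA2, a prolyl hydroxylase that stabilises collagen, had 12.9, 11.6 and 10.9 TPM in SHMO pools, against 5.03, 4.24 and 3.58 TPM in Ctrl pools (log2(FC) 1.38 ± 0.194, adjusted p = 0.00404) and held its call without any single pool. The fibrillar collagen gene col5a3b had 52.0, 39.9 and 62.5 TPM in SHMO pools, against 31.2, 21.0 and 30.3 TPM in Ctrl pools (log2(FC) 0.83 ± 0.199, adjusted p = 0.0306), lost without SHMO replicate 3 or any one Ctrl pool.

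Lists of the machinery common to all cells held calls in both directions, apart from ribosomal proteins and the mitochondrial genome. The shares called higher and lower were 1.92% and 1.92% for nuclear oxidative phosphorylation, 1.96% and 3.92% for the proteasome and 4.65% and 11.6% for ribosome biogenesis. Over all genes tested they were 3.57% and 5.43%, so the first 2 of these lists held fewer calls than genes at large. Of 81 ribosomal protein genes 0 rose and only rps11l fell, with 2.67, 2.83 and 2.24 TPM in SHMO pools, against 21.1, 10.8 and 17.4 TPM in Ctrl pools (log2(FC) -2.64 ± 0.267, adjusted p = 0.000864), while the list median was -0.20 (-0.14 without further scaling and -0.05 under quantile normalization) and 71 of the 81 log2(FC) values were not above 0. Of 104 nuclear genes of oxidative phosphorylation 2 rose and 2 fell (median 0.10), with ndufv3 of complex I higher (log2(FC) 0.95 ± 0.186, adjusted p = 0.0158) and cox8b of complex IV lower (log2(FC) -1.25 ± 0.264, adjusted p = 0.0202). The first call was lost without SHMO replicate 2 or 3, and the second was kept only without SHMO replicate 1. Of 51 proteasome genes 1 rose and 2 fell (median 0.08). The 2 that fell belong to special forms of the particle. PSME4, an activator of proteasomes, had 2.65, 2.25 and 2.15 TPM in SHMO pools, against 19.1, 16.2 and 11.6 TPM in Ctrl pools (log2(FC) -2.72 ± 0.268, adjusted p = 0.000819). PSMB10, a subunit of the immunoproteasome, had 1.99, 2.29 and 2.37 TPM in SHMO pools, against 8.62, 7.57 and 11.3 TPM in Ctrl pools (log2(FC) -2.05 ± 0.239, adjusted p = 0.00168), and both calls held without any single pool. Of 43 ribosome biogenesis genes 2 rose and 5 fell (median 0.13), with NOC2L lower (log2(FC) -1.17 ± 0.196, adjusted p = 0.00822). Without 1 pool in turn the counts were 0 to 3 higher and 0 to 2 lower for oxidative phosphorylation, 0 to 1 higher and 2 lower for the proteasome and 0 to 1 higher and 1 to 5 lower for ribosome biogenesis. Of 13 protein-coding genes of the mitochondrial genome 3 rose and 0 fell (median 0.40), all 3 of complex I. MT-ND1 had 4130.0, 4401 and 4550.5 TPM in SHMO pools, against 2818, 2441 and 2913 TPM in Ctrl pools (log2(FC) 0.61 ± 0.111, adjusted p = 0.0113). MT-ND4 had 2636, 2678 and 3154 TPM in SHMO pools, against 1664, 1584 and 1936 TPM in Ctrl pools (log2(FC) 0.64 ± 0.13, adjusted p = 0.0177). MT-ND5 had 1411, 1196 and 1414 TPM in SHMO pools, against 843, 839 and 829 TPM in Ctrl pools (log2(FC) 0.61 ± 0.11, adjusted p = 0.0114), and its call was lost without SHMO replicate 1 or 3 or Ctrl replicate 1. Summed, the 13 gave 109253, 86142 and 117783 TPM in SHMO replicates 1 to 3, against 65556, 78535 and 86329 TPM in Ctrl replicates 1 to 3, so SHMO replicate 2 lay below Ctrl replicate 3. Calls among the 13 numbered 2, 1 and 0 when SHMO replicate 1, 2 or 3 was left out and 0, 1 and 4 when Ctrl replicate 1, 2 or 3 was.

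Genes that make, move or cut sialic acid, the sugar that sets the injected oligosaccharides apart from plain milk sugars, were called 1 higher and 3 lower of 40, with a median log2(FC) of 0.08. These shares, 2.5% higher and 7.5% lower, were near the 3.57% and 5.43% of all genes tested, so the list as a whole did not stand out. GNE, the bifunctional enzyme at the start of sialic acid synthesis, had 11.3, 16.9 and 13.9 TPM in SHMO pools, against 10.1, 6.84 and 6.09 TPM in Ctrl pools (log2(FC) 0.81 ± 0.216, adjusted p = 0.0437). The sialidase NEU3 (ENSDARG00000010047), which acts on gangliosides at the cell surface, had 2.26, 3.0 and 3.54 TPM in SHMO pools, against 8.01, 6.72 and 11.4 TPM in Ctrl pools (log2(FC) -1.59 ± 0.253, adjusted p = 0.00668). The lysosomal sialic acid exporter slc17a5 had 6.57, 4.79 and 4.24 TPM in SHMO pools, against 9.22, 7.88 and 7.59 TPM in Ctrl pools (log2(FC) -0.74 ± 0.168, adjusted p = 0.0261). ST3GAL5, the enzyme that makes the ganglioside GM3, had 16.2, 13.7 and 15.6 TPM in SHMO pools, against 19.7, 21.8 and 26.8 TPM in Ctrl pools (log2(FC) -0.64 ± 0.171, adjusted p = 0.0438). Pools did not overlap between the groups in any of the 4 genes, which held for nearly all called genes, and SHMO replicate 1 and Ctrl replicate 1 lay close together in GNE. Only the call of NEU3 held without any single pool, GNE and slc17a5 kept theirs only without SHMO replicate 1, and ST3GAL5 lost its call without SHMO replicate 2 or 3 or Ctrl replicate 2 or 3. SHMO and SBMO larvae were not called different in any of them (adjusted p = 0.124 to 0.809).

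With all pools, the myeloid, hormone and hypoxia-linked lists held calls in both directions, and the interferon and immediate early lists only lower ones. Without 1 pool in turn the counts were 0 to 1 higher and 1 to 8 lower for myeloid genes, 0 higher and 1 to 4 lower for interferon and antigen presentation, 0 to 5 higher and 3 to 7 lower for neuropeptides and hormones and 0 to 1 higher and 1 to 2 lower for hypoxia-linked genes. Of 31 myeloid and inflammation genes 1 rose and 3 fell (median log2(FC) -0.39). The cytokine inhibitor SOCS1 (ENSDARG00000038095) had 7.71, 3.67 and 4.81 TPM in SHMO pools, against 16.9, 14.4 and 17.3 TPM in Ctrl pools (log2(FC) -1.69 ± 0.238, adjusted p = 0.00403). One gene named MPEG1, after a pore protein of macrophages (ENSDARG00000043093), had 6.53, 4.16 and 7.35 TPM in SHMO pools, against 2.65, 1.77 and 3.7 TPM in Ctrl pools (log2(FC) 1.08 ± 0.282, adjusted p = 0.0421). Another, ENSDARG00000055290, had 3.44, 2.33 and 2.44 TPM in SHMO pools, against 2.89, 2.3 and 3.51 TPM in Ctrl pools, and the groups overlapped. The call of SOCS1 held without any single pool, and that of ENSDARG00000043093 was kept only without Ctrl replicate 3. Of 16 interferon and antigen presentation genes 0 rose and 2 fell (median -0.38), PSMB10 and ERAP1 (log2(FC) -1.10 ± 0.267, adjusted p = 0.0321), the second with a call kept only without SHMO replicate 1. Of 34 immediate early genes 5 fell and 0 rose (median -0.35), and the count called lower was 4, 2 and 2 when SHMO replicate 1, 2 or 3 was left out and 2, 4 and 3 when Ctrl replicate 1, 2 or 3 was. Ctrl replicate 1 was the highest pool of this list, with sums of 536, 602 and 642 TPM in SHMO replicates 1 to 3, against 1189, 673 and 828 TPM in Ctrl replicates 1 to 3, and without it the median was 0.10. JUNB (ENSDARG00000104773) had 8.5, 9.91 and 3.06 TPM in SHMO pools, against 82.9, 32.0 and 45.3 TPM in Ctrl pools (log2(FC) -3.0 ± 0.602, adjusted p = 0.0173), lost without SHMO replicate 3 or Ctrl replicate 1 or 3. The flow-induced factor klf2a had 14.5, 9.55 and 11.7 TPM in SHMO pools, against 57.3, 35.4 and 48.2 TPM in Ctrl pools (log2(FC) -2.03 ± 0.284, adjusted p = 0.004), and this call held without any single pool. In SHMO against SBMO, which uses the same SHMO pools, 6 of the 34 were called lower, while 4.54% of all genes were called in either direction. Of 37 neuropeptide and hormone genes 2 rose and 5 fell (median -0.03, and 0.03 without further scaling). Those that fell included 2 genes of thyroid hormone action. The inactivating deiodinase dio3b had 2.41, 1.33 and 1.56 TPM in SHMO pools, against 7.12, 7.97 and 7.99 TPM in Ctrl pools (log2(FC) -2.17 ± 0.263, adjusted p = 0.00203). The receptor THRA (ENSDARG00000000151) had 3.91, 2.7 and 3.36 TPM in SHMO pools, against 9.98, 8.31 and 7.95 TPM in Ctrl pools (log2(FC) -1.44 ± 0.185, adjusted p = 0.00278). The releasing hormone gnrh2 had 2.89, 4.19 and 3.59 TPM in SHMO pools, against 7.22, 7.47 and 6.65 TPM in Ctrl pools (log2(FC) -1.06 ± 0.166, adjusted p = 0.00627), and these 3 calls held without any single pool. The antidiuretic hormone gene avp rose (log2(FC) 0.95 ± 0.204, adjusted p = 0.021), a call lost without SHMO replicate 2 or 3 or Ctrl replicate 1 or 2. Of 31 hypoxia-linked genes 2 rose and 2 fell (median -0.17). NDRG1 (ENSDARG00000032849), a stress-responsive gene that hypoxia induces in mammals, had 48.6, 42.0 and 42.0 TPM in SHMO pools, against 85.7, 68.0 and 74.4 TPM in Ctrl pools (log2(FC) -0.85 ± 0.137, adjusted p = 0.00718) and held its call without any single pool.

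Metabolic enzymes outside the lipid pathways were also called in both directions. Of 37 glycolysis genes 2 rose and 4 fell (median log2(FC) 0.20). Apart from GAPDH, those that fell included PKLR, the pyruvate kinase of liver and red cells, and those that rose included the brain aldolase ALDOC. PKLR had 99.9, 76.0 and 93.0 TPM in SHMO pools, against 224, 242 and 257 TPM in Ctrl pools (log2(FC) -1.5 ± 0.345, adjusted p = 0.0266). ALDOC (ENSDARG00000019702) had 438, 579 and 583 TPM in SHMO pools, against 354, 308 and 154 TPM in Ctrl pools (log2(FC) 0.98 ± 0.261, adjusted p = 0.0439). Both calls were kept only without SHMO replicate 1. Of 24 genes of methionine and one-carbon metabolism 4 rose and 2 fell (median 0.06). SEPHS1, which makes selenophosphate, had 20.6, 22.7 and 21.8 TPM in SHMO pools, against 11.4, 8.94 and 9.05 TPM in Ctrl pools (log2(FC) 1.08 ± 0.146, adjusted p = 0.00351) and held its call without any single pool. MAT2A (ENSDARG00000037121), which makes S-adenosylmethionine, had 29.8, 20.0 and 17.2 TPM in SHMO pools, against 9.62, 6.46 and 7.66 TPM in Ctrl pools (log2(FC) 1.4 ± 0.289, adjusted p = 0.0186), a call lost without SHMO replicate 2 or any one Ctrl pool. Of 61 cytochrome P450 and xenobiotic genes 3 rose and 6 fell (median -0.21), and the range of their log2(FC) was -1.84 to 2.47. The count of these called lower was 12, 0 and 0 when SHMO replicate 1, 2 or 3 was left out and 1, 0 and 0 when Ctrl replicate 1, 2 or 3 was, and their median was -0.41 without SHMO replicate 1 and -0.07 without SHMO replicate 2. Without 1 pool in turn the counts were 0 to 3 higher and 1 to 6 lower for glycolysis and 1 to 2 higher and 0 to 4 lower for methionine and one-carbon metabolism. Of 13 hox genes 2 rose and 0 fell (median 0.17), hoxa9a (log2(FC) 0.76 ± 0.137, adjusted p = 0.0113) and hoxa9b (log2(FC) 0.73 ± 0.187, adjusted p = 0.0385), the first with a call lost without SHMO replicate 2 and the second with one kept only without SHMO replicate 1. Spliceosomal small nuclear RNAs, which a poly(A) library captures only by chance, were set apart in a single Ctrl pool. Summed over 38 genes they stood at 476, 634 and 402 TPM in SHMO replicates 1 to 3, against 720.1, 13034 and 392 TPM in Ctrl replicates 1 to 3, and 3 were called lower. Of these, rnu2 (ENSDARG00000117035) was listed at 0 in every SHMO pool and at 4.69, 38.3 and 3.60 TPM in Ctrl replicates 1 to 3. It passed the limit of a mean of 1 TPM through its Ctrl values alone, so its call as lower is no separate support. Only 38 of the 568 genes matched to this list passed that limit. How far Ctrl replicate 2 decided which of them passed was not tested.

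**Figure D5:**
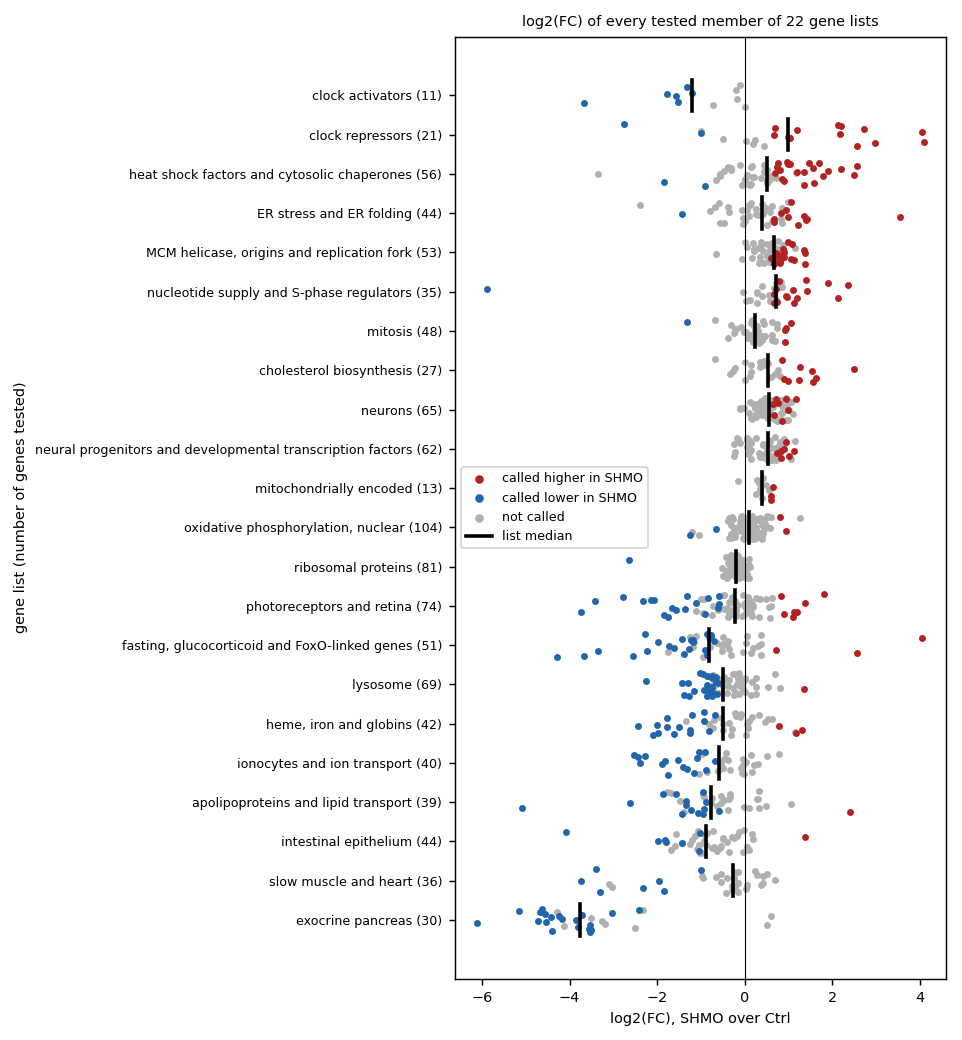
log2(FC) of SHMO over Ctrl for every tested member of 22 gene lists (points; red called higher, blue called lower, grey not called), with the list median as a black bar. Replication genes lie almost wholly to the right of 0 (51 of 53), exocrine pancreas genes almost wholly to the left (28 of 30), and ribosomal protein genes form a narrow group around -0.20.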

How the data were processed

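RNA was sequenced from pools of whole larvae, 3 each for SHMO, SBMO and Ctrl, after poly(A) selection. The authors deposited gene values in TPM with 2 decimals, normalised for gene length and library total. The submitters' processing notes name STAR, RSEM and GRCz11, with neither versions nor an annotation release. Of 32520 gene identifiers 29201 had a symbol in the RefSeq and Ensembl name tables. TPM keeps no read depth, so no count test was run and no counting interval is given.

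Columns were matched to samples by name, and pools to groups by GEO's labels. TPM values were divided by median-ratio factors, log2(TPM + 0.1) was fitted in limma 3.58.1 (R 4.3.3) over all 9 pools with a trended variance prior (4.14 prior degrees of freedom), and p-values were adjusted by Benjamini-Hochberg over the 19204 genes that averaged 1 TPM or more in the 6 pools. The median standard error was 0.213 log2 units. SHMO was set against Ctrl, and against SBMO to show where a named difference was shared. Figures used Python 3.11.15 and matplotlib 3.10.9.

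Named genes are the 10 that rose and the 10 that fell most in log2(FC) (pools apart, higher mean of at least 5 TPM, lower of at least 0.1 TPM), the 8 each that rose and fell most in TPM, and up to 4 called members per list and direction with the smallest adjusted p, chosen among the 51 gene lists. Genes outside this rule were chosen after their values were seen. Some genes that the rule names are not reported here. The members and lists were chosen with earlier results of these data known. Alternatives changed the pseudocount, filter, scaling, variance prior and block, used only the 6 pools, or left out pools.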

Additional observations from a re-analysis of the deposited data

How the results depend on the processing

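In SHMO against Ctrl 1729 genes were called, 686 higher and 1043 lower. The 11829 genes that averaged 5 TPM or more gave 1070 calls, 611 of them lower. With the replicate number as a block 1132 genes were called, 420 higher and 712 lower. The deviations of same-numbered pools correlated at -0.256, 0.135 and -0.14, and those of differently numbered pools at -0.306 to 0.337. Deviations from a mean of 3 pools depend on each other, so these values cannot exclude a pairing. The main fit used none. Leaving out 1 pool in turn gave 422 to 2617 calls, 132 to 1027 higher and 281 to 1590 lower, and the extremes were reached without SHMO replicate 1 and without SHMO replicates 2 or 3. Pseudocounts of 0.5 and 1 TPM, no filter, no further scaling, quantile normalization, only the 6 pools and other variance priors gave 1496 to 1951 calls. In SHMO against SBMO 4.54% of all genes were called, and 82 of the 259 genes followed. Most of the 259 were chosen by their difference between SHMO and Ctrl. The same SHMO pools enter here, so the 82 are no separate support. The 82 became 48 to 76 when 1 pool was left out. Without both SHMO replicate 1 and Ctrl replicate 3, an alternative chosen after seeing the data, the number was 34. No called log2(FC) among the 259 changed sign under any alternative. Of the 259, 254 were called, and 236 were chosen by a rule that takes called genes. A change of sign was therefore hardly possible, and its absence is no test of them. Calls were lost for 35 genes with the block, for 19 without SHMO replicate 1, and for 100 to 145 without each other pool, and 98 genes were called in all 6 of these fits. Of the 51 list medians 10 changed sign when some 1 pool was left out: those of liver plasma proteins, complement, endocrine pancreas, lens, cartilage and bone, collagens, sialic acid enzymes, immediate early genes, neuropeptides and one-carbon metabolism. The counting error of genes with low TPM was not assessed. A collection hour, a saline-injected group and cell numbers were not part of these values, so clock phase, injection and tissue composition cannot be told apart from SHMO here.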
